A study of Bos taurus with 14 samples.

Results

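The genes described here carry out fatty acid metabolism and its control by PPAR receptors in the elongating bovine conceptus. A gene was included when its symbol stood on a list of 35 genes and was the single symbol that the platform annotation gave to a probe set. By that rule 32 genes were measured, with 44 of the 24016 probe sets tested, out of 9155 named genes. Of these, 8 genes had more than 1 probe set. ACSL4, FADS1 and CPT1A were not analysed here.

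RNA of 14 whole conceptuses, the embryo with its membranes, was hybridised to 1 Affymetrix bovine array each. All were Holstein conceptuses. Their donor cows had been superovulated and inseminated with semen of 1 bull, and the embryos were collected on Day 6.5, graded by morphology, transferred in groups of 2 to 6 to recipient heifers and flushed on Day 15. Grade 1 embryos gave 11 conceptuses and Grade 3 embryos gave 3. Among the Grade 1 conceptuses 5 were long (1 male and 4 female), 5 were short (2 male and 3 female) and 1, a male, carried no length. The Grade 3 conceptuses were 2 males and 1 female, with no length given.

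Values are log2 expression values from RMA, so a difference of 1 is a 2-fold difference. A probe set was called when its adjusted p in limma, a linear model with moderated variances, was under 0.05 after Benjamini-Hochberg adjustment over all 24016 probe sets. Intervals are 95% intervals, and a value after ± is an SD unless an SE is named. Levels were not compared between genes, because probe sets differ in brightness for technical reasons; percentiles of level serve only to mark dim and bright probe sets.

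Fatty acids enter a cell through carriers, bind small intracellular proteins, and are activated to acyl-CoA by acyl-CoA synthetases before any further use. The acyl-CoA may then be desaturated, elongated, stored as triacylglycerol in droplets, or oxidised in mitochondria and peroxisomes. PPARs are nuclear receptors that bind fatty acids and their derivatives, pair with RXRs and regulate genes of all these steps. In ruminants the trophoblast fills with lipid droplets as it elongates, and PPARG knock-down in sheep trophectoderm disturbs elongation.

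Some arrays need naming before the results. For Grade 1 short replicate 1, the source label says long and the length characteristic says short; the characteristic was used, and values with the conceptus counted as long are given where they end a call. Grade 1 short replicate 5 had the lowest mean correlation with the other arrays, by a small margin (0.9899, the others 0.9914 to 0.9943). It was the lowest short conceptus for PPARG, SLC27A6, SCD and all 3 probe sets of ACSL3. Of the 44 probe sets, 8 lay below the 25th percentile of all probe sets by mean level: both of PPARA, the dimmer pair of PPARD, both of FABP4, and those of CD36 and SCD5. RMA compresses differences at such low levels. Because whole conceptuses were used, fewer cells of a type and less RNA per cell cannot be told apart.

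The conceptus label was set against lineage markers. Trophectoderm keratin KRT18 and interferon tau IFNT2 stood above the 99th percentile of all probe sets, and 5 of the 7 measured trophectoderm markers above the 75th. The mean log2 level over these 7 was 10.11 to 10.30 in long, 10.26 to 10.35 in short and 10.26 to 10.36 in Grade 3 conceptuses. Over 8 hypoblast and endoderm markers it was 7.54 to 7.69 in long and 7.66 to 7.92 in short, and over 3 epiblast markers 5.56 to 5.99 in long and 5.94 to 6.44 in short. Among these, TFAP2A and APOA1 were called higher and ASCL2, PDGFRA and DNMT3B lower in long conceptuses. The 4 adipocyte markers averaged 4.32 to 4.58 in long and 4.32 to 4.60 in short, and the 8 endometrial markers 4.38 to 4.59 and 4.35 to 4.57, with 0 called in either list. The 8 blood and immune markers averaged 5.34 to 5.60 in long and 5.42 to 5.74 in short, with CD8A called lower in long conceptuses. The 6 endothelium markers averaged 4.14 to 4.27 and 4.12 to 4.23, with PECAM1 called higher and SOX18 lower, and the 6 erythroid markers 3.92 to 4.01 and 3.89 to 4.09, with 0 called. Of the 4 adipocyte markers, 1 lay below the 25th percentile, the adipokine ADIPOQ at the 11th, and 0 above the 75th. PLIN1 of that list was not measured. The part of these marker differences in the results below was not tested.

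**Figure D1:**
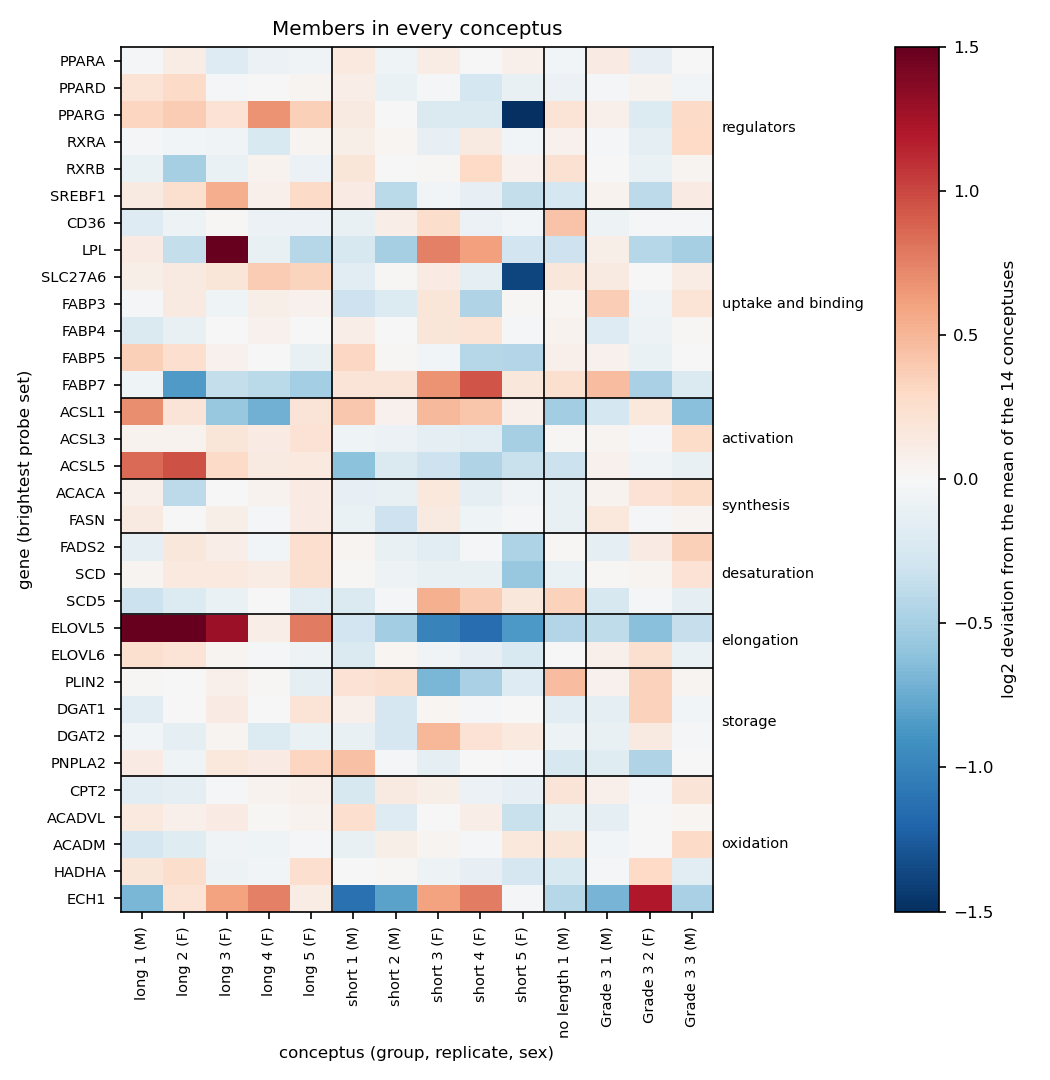
Log2 deviation of each measured gene, by its brightest probe set, from its own mean over the 14 conceptuses; columns are conceptuses with group, replicate and sex, and rows are genes in the order of the pathway. Colours end at a deviation of 1.5, so deeper values look alike. ELOVL5 is high in the long columns, PPARG and SLC27A6 are low in short replicate 5, and ECH1 is low in the male columns.

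Between long and short Grade 1 conceptuses, 1 of 2 elongation genes and 2 of 3 activation genes had a probe set called higher in the long group, and 1 intracellular carrier was called lower. ELOVL5, which elongates polyunsaturated fatty acids, rose 3.70 fold. The acyl-CoA synthetases ACSL5 and ACSL3 rose 1.82 and 1.42 fold, ACSL3 by 1 of its 3 probe sets, and the brain-type binding protein FABP7 fell 1.83 fold. Calls were 0 of 12 probe sets for regulators, 0 of 6 for oxidation, 0 of 4 for storage and 0 of 3 each for fatty acid synthesis and desaturation. With so few probe sets, 0 calls does not set a step apart from the 6.57% of all probe sets called. Other genes of these steps were called in a wider list described below. In all, limma called 3 member probe sets higher and 1 lower out of 44 (9.09%), against 6.57% of all probe sets (2.70% higher and 3.87% lower). At an unadjusted p under 0.05 there were 11 higher and 3 lower (31.8%), against 22.0% of all probe sets. Long and short values were fully apart in 7 probe sets higher and 1 lower in long conceptuses, and in 8.42% of all (2.90% higher and 5.52% lower). The median log2 difference over the 44 was 0.11, with 30 above 0, against -0.02 over all probe sets.

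The regulators came first in the pathway, with 12 probe sets of 6 genes and 0 called. SREBF1, a transcription factor that drives lipid synthesis genes, had the smallest p among them. Its brightest probe set measured 10.43, 10.54, 10.84, 10.37 and 10.58 in long replicates 1 to 5 and 10.42, 9.90, 10.26, 10.17 and 9.94 in short replicates 1 to 5. The groups overlapped only through short replicate 1, the conceptus with disagreeing labels, which lay above long replicate 4. The difference was 0.41 ± 0.12 (SE, interval 0.16 to 0.67, limma adjusted p = 0.0574), and with that conceptus counted as long it was 0.46 and called (limma adjusted p = 0.0487), as it was with it left out (0.48, limma adjusted p = 0.0304). With that conceptus kept as short, the call depended on the fit. A fixed block for the shared prefix of sample titles gave 0.60 and a call (limma adjusted p = 0.0474), and a random block 0.44 and a call (limma adjusted p = 0.0399). There was no call with arrays centred (limma adjusted p = 0.0603) or with sex as a covariate (limma adjusted p = 0.0636). The other probe sets of SREBF1 differed by 0.16, 0.11 and 0.17.

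PPARG, the receptor tied to trophoblast differentiation, measured 8.60, 8.65, 8.49, 8.94 and 8.62 in long replicates 1 to 5. In short replicates 1 to 5 it measured 8.41, 8.27, 8.05, 8.06 and 6.25. Every long conceptus was above every short one, and short replicate 5 was far below all others. The difference of 0.85 ± 0.34 (SE, interval 0.11 to 1.59) was not called (limma adjusted p = 0.163). Without short replicate 5 it was smaller, 0.46, and called (limma adjusted p = 0.0476).

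The other nuclear receptors differed little. PPARD, the ubiquitous PPAR, was at 0.18 in its brightest probe set (interval -0.01 to 0.37) and at -0.02 and -0.13 in the dim pair. PPARA, which drives oxidation genes in liver, was at -0.10 and -0.16, both dim. The PPAR partners RXRA and RXRB differed by -0.08 (interval -0.24 to 0.08) and -0.26 (interval -0.49 to -0.04, limma adjusted p = 0.154).

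Uptake and binding genes numbered 7 with 9 probe sets, and 1 was called, lower in long conceptuses. FABP7 measured 3.90, 3.11, 3.61, 3.55 and 3.45 in long replicates 1 to 5 and 4.16, 4.16, 4.63, 4.90 and 4.13 in short replicates 1 to 5. No long value reached a short one, though all are low: the probe set stood at the 26th percentile by mean level. The fall of 0.87 ± 0.17 (SE, interval -1.25 to -0.49) had limma adjusted p = 0.0198. Without long replicate 5 it was -0.85 and missed the threshold (limma adjusted p = 0.051), and with the conceptus of disagreeing labels counted as long it was -0.82 (limma adjusted p = 0.057). The conceptus with no length, at 4.20, and 1 Grade 3 conceptus, at 4.43, lay in the short range.

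The remaining carriers and the lipase at the vessel wall were not called. SLC27A6, a fatty acid transport protein, differed by 0.53 ± 0.24 (SE, limma adjusted p = 0.217), with short replicate 5 at 9.77 and the other short values at 10.99 to 11.27. The heart-type carrier FABP3 differed by 0.19 and the epidermal-type FABP5 by 0.24 in both probe sets. FABP4, the adipocyte carrier, differed by -0.15 and 0.04, and the scavenger receptor CD36 by -0.11, all at dim probe sets. LPL, which frees fatty acids from lipoproteins, varied widely: 0.10 with an interval of -0.73 to 0.93, and long replicate 3 at 6.26.

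**Figure D2:**
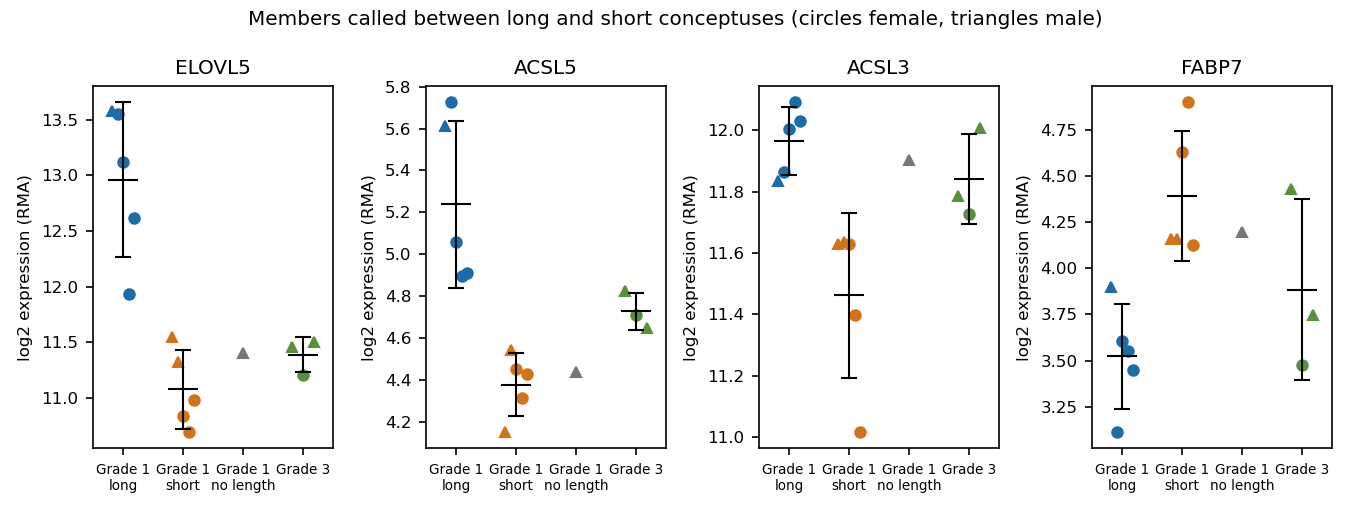
Log2 expression in each conceptus of the genes called between long and short Grade 1 conceptuses; bars are group means with SD, circles are females and triangles males, and ACSL3 is its called probe set. Long and short points do not overlap in any panel, and the Grade 3 points for ELOVL5, 11.21 to 11.50, lie below the long range.

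Activation genes had 4 of 5 probe sets with an unadjusted p under 0.05, all higher in long conceptuses (22.0% of all probe sets had such a p). These were all 3 probe sets of ACSL3 and that of ACSL5, so the count covers 2 genes. ACSL5, an acyl-CoA synthetase of mitochondria and endoplasmic reticulum, measured 5.61, 5.72, 5.06, 4.89 and 4.91 in long replicates 1 to 5 and 4.15, 4.54, 4.45, 4.31 and 4.43 in short replicates 1 to 5. The groups were apart. The rise was 0.86 ± 0.17 (SE, interval 0.50 to 1.22, limma adjusted p = 0.0176). Long replicates 1 and 2 were the high ones, and with the conceptus of disagreeing labels counted as long the rise was 0.62 and not called (limma adjusted p = 0.181).

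ACSL3, a synthetase of lipid droplets and endoplasmic reticulum, had 3 probe sets with the groups apart in each. The called one measured 11.84, 11.86, 12.00, 12.09 and 12.03 in long replicates 1 to 5 and 11.63, 11.64, 11.63, 11.40 and 11.02 in short replicates 1 to 5. It rose by 0.50 ± 0.12 (SE, limma adjusted p = 0.0327). The brightest probe set differed by 0.32 (limma adjusted p = 0.052) and the third by 0.42 (limma adjusted p = 0.0599). The call was kept in 4 of 10 fits that each left out 1 conceptus, and lost without any 1 long replicate or short replicate 4 (limma adjusted p = 0.0541 to 0.0777). With the conceptus of disagreeing labels counted as long it was 0.49 and not called (limma adjusted p = 0.0667). ACSL1, the main synthetase of liver and fat, went the other way at -0.33 (interval -0.85 to 0.19, limma adjusted p = 0.47).

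Synthesis of fatty acids from acetyl-CoA did not separate the lengths. FASN, the synthase that builds palmitate, measured 11.92, 11.79, 11.87, 11.76 and 11.91 in long replicates 1 to 5 and 11.69, 11.48, 11.92, 11.72 and 11.77 in short replicates 1 to 5. The groups overlapped, and the difference was 0.14 with an interval of -0.04 to 0.31. ACACA, which makes the malonyl-CoA that FASN uses, differed by 0.025 (interval -0.20 to 0.25) and -0.0098 in its probe sets.

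Desaturation held 3 measured genes and 0 calls. SCD, which places the double bond of oleate, measured 13.34, 13.45, 13.45, 13.41 and 13.55 in long replicates 1 to 5 and 13.32, 13.22, 13.19, 13.19 and 12.74 in short replicates 1 to 5. The groups were apart by a narrow margin, at 0.31 ± 0.10 (SE, interval 0.09 to 0.53, limma adjusted p = 0.093). FADS2, the first desaturase of polyunsaturated synthesis, differed by 0.21 (interval -0.02 to 0.44), and the dim SCD5, a related desaturase, by -0.33 (limma adjusted p = 0.162), or -0.42 and called without short replicate 1 (limma adjusted p = 0.049).

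Elongation had the largest difference among the 44 probe sets. ELOVL5 measured 13.58, 13.55, 13.12, 11.93 and 12.62 in long replicates 1 to 5, against 11.55, 11.32, 10.84, 10.69 and 10.98 in short replicates 1 to 5. The means were 12.96 ± 0.69 (SD, n = 5) and 11.07 ± 0.35 (SD, n = 5), the lowest long value lay above the highest short value, and the long values ranged more widely. The rise was 1.89 ± 0.29 (SE, interval 1.24 to 2.53, limma adjusted p = 0.00902). It was called in each of 10 fits that left out 1 conceptus (1.73 to 2.14) and with the conceptus of disagreeing labels counted as long (1.77, limma adjusted p = 0.0407). Sample titles share prefixes of unstated meaning, and 2 of these hold both lengths: inside them the differences were 2.25 (2 long, 1 short) and 2.36 (1 long, 2 short). ELOVL6, which lengthens palmitate, differed by 0.20 (interval 0.02 to 0.38, limma adjusted p = 0.183).

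The within-prefix differences of the other called genes had the sign of the whole comparison. That sign was fixed in advance, as for ELOVL5 and PPARG, because their long and short values did not overlap. They were 1.12 and 0.67 for ACSL5, 0.21 and 0.49 for the called probe set of ACSL3, and -0.65 and -1.16 for FABP7. PPARG stood at 0.35 and 0.43 and SREBF1 at 0.59 and 0.62 inside the same prefixes.

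Storage showed no called gene among 4. DGAT2, one of the enzymes that complete triacylglycerol, measured 4.98, 4.89, 5.06, 4.82 and 4.92 in long replicates 1 to 5 and 4.91, 4.77, 5.52, 5.24 and 5.16 in short replicates 1 to 5. The groups overlapped, with a difference of -0.19 (interval -0.46 to 0.08). DGAT1, the other such enzyme, differed by 0.061 (interval -0.13 to 0.25). The droplet coat protein PLIN2 was at 0.18 (interval -0.17 to 0.54), and PNPLA2, which starts triacylglycerol breakdown, at 0.086 (interval -0.15 to 0.33).

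Oxidation held 5 measured genes with 6 probe sets and 0 calls. HADHA, the alpha subunit of the mitochondrial trifunctional protein, measured 7.33, 7.41, 7.06, 7.10 and 7.39 in long replicates 1 to 5 and 7.13, 7.16, 7.06, 7.02 and 6.89 in short replicates 1 to 5. The groups overlapped, at 0.21 ± 0.09 (SE, limma adjusted p = 0.197). CPT2, which passes acyl groups into the mitochondrial matrix, differed by 0.0014 with an interval of -0.19 to 0.19. ACADVL and ACADM, dehydrogenases of very long and medium chains, were at 0.12 (interval -0.10 to 0.34) and -0.15 (interval -0.30 to 0.01). ECH1, an isomerase for unsaturated chains, was at 0.32 and 0.021, and it varied with sex as described below.

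**Figure D3:**
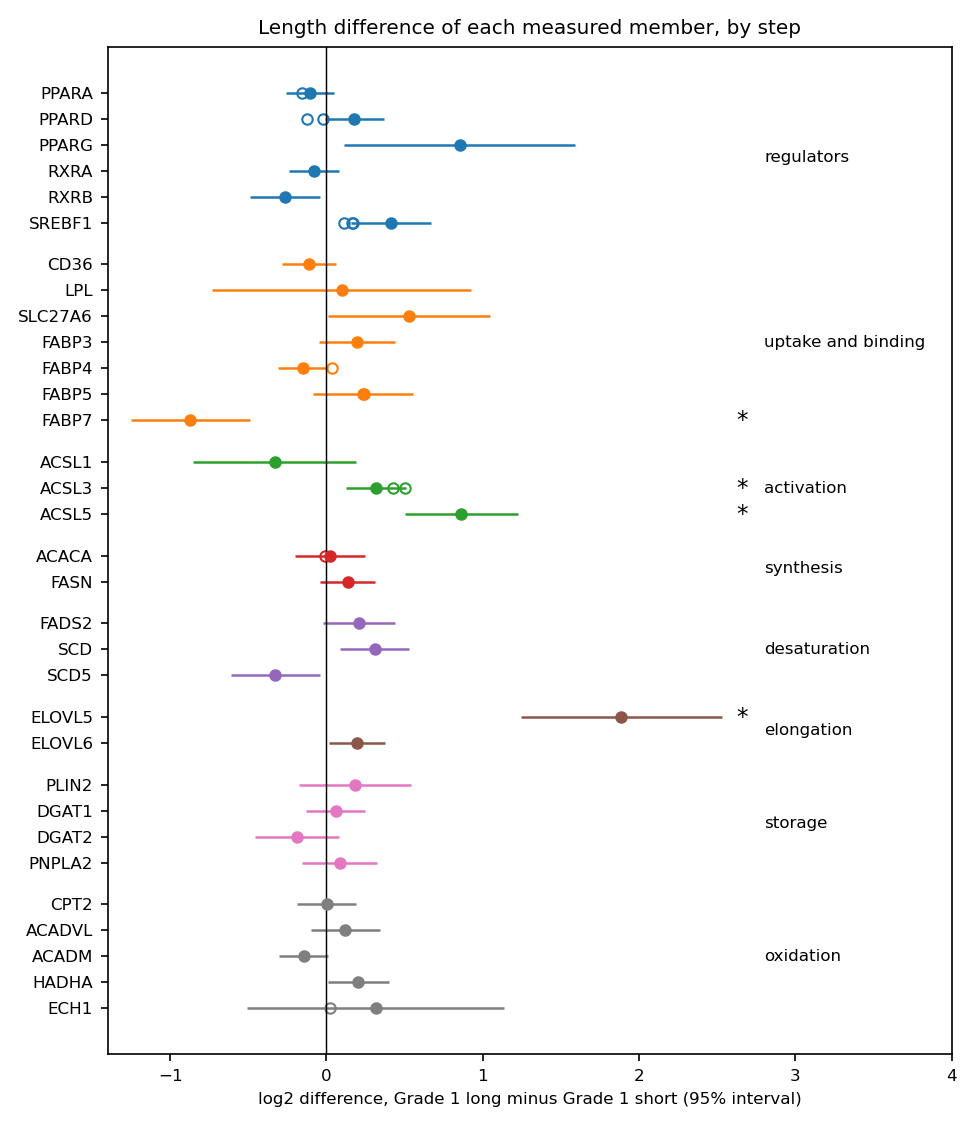
Log2 difference of Grade 1 long minus Grade 1 short for each gene by step, with the 95% interval of its brightest probe set (filled) and the other probe sets of the gene as open circles; an asterisk marks a gene with a called probe set. ELOVL5 at 1.89 and ACSL5 at 0.86 lie to the right, FABP7 at -0.87 to the left, and the intervals of most storage and oxidation genes cross 0.

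A wider list of 122 other genes of the same steps had 89 measured genes with 137 probe sets. Of these, 14 probe sets were called higher and 2 lower in long conceptuses (11.7%, against 6.57% of all probe sets), with a median difference of 0.033. They covered 13 genes higher and 2 lower, and each step held at least 1 of them. By step the counts of probe sets called were 2 of 31 for regulators, 3 of 16 for uptake, 1 of 9 for activation, 1 of 9 for synthesis, 1 of 4 for desaturation, 1 of 5 for elongation, 5 of 29 for storage and 2 of 34 for oxidation.

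Storage, a step that here includes triacylglycerol breakdown, gave 5 of those called genes, all higher in long conceptuses. None of the 4 storage genes described above was called. ABHD5, the activator of the lipase PNPLA2, rose by 0.84 ± 0.16 (SE, limma adjusted p = 0.0178). AGPAT1, which adds the middle acyl chain to glycerol phosphate, rose by 0.59 ± 0.13 (SE, limma adjusted p = 0.0263), and its relative AGPAT3 by 0.36 in 1 of 3 probe sets, the others standing at 0.24 and 0.21. GPAM, the mitochondrial enzyme that adds the first chain, rose by 0.56, and the monoacylglycerol acyltransferase MOGAT1 by 0.44.

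Among regulators, INSIG1, which holds SREBPs in the endoplasmic reticulum, rose by 0.73 ± 0.17 (SE, limma adjusted p = 0.0298). SREBF2, the SREBP of sterol genes, rose by 0.40 (limma adjusted p = 0.0326), with its other probe set at 0.074. Among uptake genes, GOT2, a mitochondrial aminotransferase also described as a fatty acid binding protein of the plasma membrane, rose by 0.35 and 0.37 in both probe sets. The transporter SLC27A4 fell by 0.46 ± 0.11 (SE, limma adjusted p = 0.0354).

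The other steps gave 1 or 2 genes each. ACSS2, which activates acetate, rose by 0.55, and CYB5R3, which feeds electrons to desaturases, by 0.37. ELOVL4, the elongase of very long chains, rose by 1.05 ± 0.26 (SE, limma adjusted p = 0.0386) with its other probe set at 0.24. ECI2, an isomerase of unsaturated chains, rose by 0.81 ± 0.15 (SE, limma adjusted p = 0.0175), and ABCD3, a peroxisomal membrane transporter, by 0.67. MCAT, of mitochondrial fatty acid synthesis, fell by 0.29 (limma adjusted p = 0.0484), with its other probe set at 0.026.

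Most of these calls lay near the threshold. ABHD5, ECI2 and 1 probe set of GOT2 were called in all 10 fits that left out 1 conceptus, and the other 13 probe sets in 2 to 6 of them, with a highest limma adjusted p between 0.0659 and 0.112. Of the 16, 4 were still called without long replicate 2, long replicate 5 or short replicate 4, 5 without long replicate 1 or long replicate 4, and 7 to 12 without any of the others. With the conceptus of disagreeing labels counted as long, ABHD5 and CYB5R3 remained called, and the same pair without both short replicates 1 and 5, a setting chosen after seeing the data. With the title prefix fitted as a fixed block 0 of the 16 were called, and with it as a random block all 16 were. Only 2 prefixes hold both lengths, so the fixed block takes its length differences from those conceptuses alone. All 16 were also called with arrays centred and with sex as a covariate, and 15 with quantile normalisation once more.

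**Figure D4:**
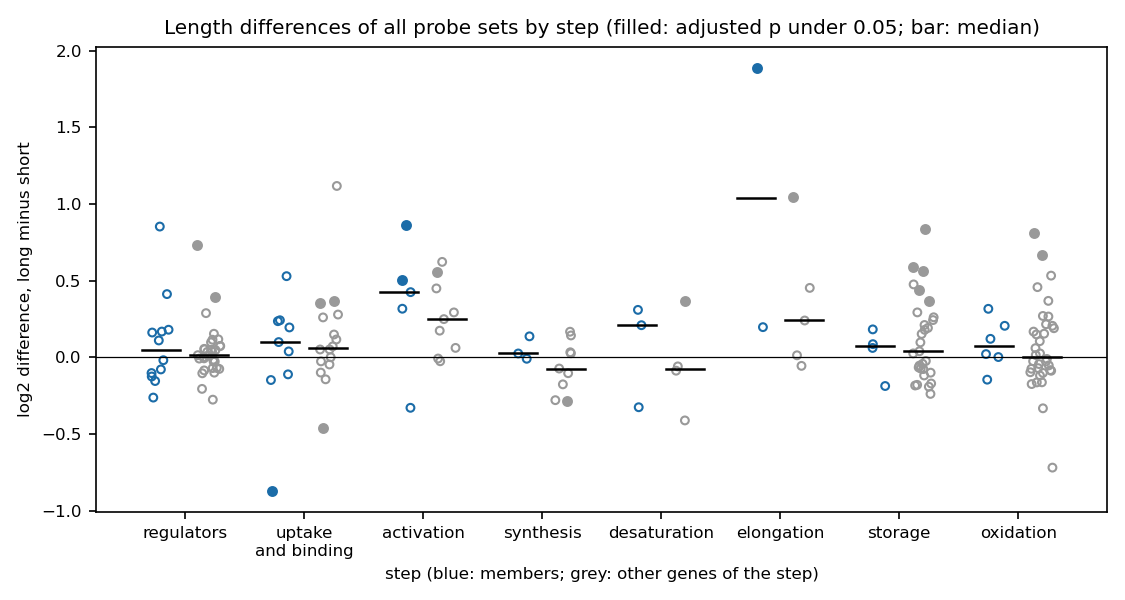
Log2 difference of long minus short for every probe set by step, the described genes in blue and the other genes of the step in grey; filled points were called in limma and bars are medians. Called points lie mostly above 0, with FABP7, SLC27A4 and MCAT below it, and the medians of oxidation are 0.070 and 0.0017.

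Grade 3 conceptuses were compared with all 11 Grade 1 conceptuses, to ask whether embryo quality at transfer left a mark on these genes. No Grade 3 conceptus shared a title prefix with a Grade 1 conceptus, and Grade 3 replicates 2 and 3 shared a prefix with each other. Grade and title prefix therefore cannot be told apart in any comparison of Grade 3. No fatty acid gene was called (0 of 44, against 0.00% of all probe sets). An unadjusted p under 0.05 was reached by 3 probe sets (5.06% of all probe sets did so). These were both of ACACA, at 0.23 (interval 0.03 to 0.44, limma adjusted p = 0.966) and 0.30 (interval 0.02 to 0.58, limma adjusted p = 0.976), and PNPLA2 at -0.27 (interval -0.54 to -0.01, limma adjusted p = 0.981). The median over the 44 was 0.020.

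ACACA measured 5.96, 6.12 and 6.19 in Grade 3 replicates 1 to 3 by its brighter probe set, against a range of 5.51 to 6.06 and a median of 5.85 in Grade 1. PNPLA2 measured 7.17, 6.91 and 7.34 in Grade 3, against 7.11 to 7.79 with a median of 7.35 in Grade 1. Both pairs of groups overlapped. The other genes had wide intervals where Grade 1 was itself mixed: ELOVL5 was at -0.58 with an interval of -1.79 to 0.64, PPARG at 0.066 (interval -0.75 to 0.88) and ACSL5 at -0.047 (interval -0.64 to 0.54).

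Because length divided Grade 1, Grade 3 was also set against the long and the short conceptuses separately. These comparisons share the Grade 3 conceptuses with each other, and the long and short conceptuses with the length comparison. Against the long group 0 of 44 probe sets were called (0.00% of all), and 5 had an unadjusted p under 0.05 (9.06% of all did so). ELOVL5 measured 11.45, 11.21 and 11.50 in Grade 3, below every long value, a difference of -1.57 ± 0.32 (SE, interval -2.25 to -0.90, limma adjusted p = 0.249). ACSL5 measured 4.82, 4.71 and 4.65, also below every long value, at -0.51 ± 0.18 (SE, limma adjusted p = 0.432). The groups lay apart in these 2 probe sets, both lower, and in 7.14% of all probe sets (4.04% higher and 3.10% lower). SREBF1 and PNPLA2 followed at -0.33 and -0.35, and ACADM stood at 0.20. With sex as a covariate ELOVL5 was called, at -1.84 (limma adjusted p = 0.027), in a fit that called 0.204% of all probe sets.

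Against the short group 0 of 44 were again called (0.00% of all), and 6 had an unadjusted p under 0.05 (10.6% of all did so). ACSL3 was higher in value in Grade 3 by 0.29, 0.38 and 0.32 in its probe sets (limma adjusted p = 0.351 to 0.424). FABP3 stood at 0.33, SCD at 0.26 and FABP7 at -0.51, none of them called. ACSL5 lay between the Grade 1 groups: all 3 Grade 3 values were above every short value, at 0.35 ± 0.18 (SE, limma adjusted p = 0.51). The groups lay apart in 3 probe sets, all higher in Grade 3: that of ACSL5 and 2 of ACSL3. Of all probe sets 6.08% lay apart (2.25% higher and 3.82% lower). ELOVL5 overlapped the short group at 0.31 (interval -0.37 to 0.99, limma adjusted p = 0.757), and the conceptus with no length, at 11.41, lay in the short range too.

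Sex was compared with the 4 groups as covariates, since the groups differ in the number of males. The isomerase ECH1 was lower in males: 1 of 44 probe sets was called, against 0.458% of all probe sets (0.354% lower in males). By its brighter probe set the 6 males ranged from 4.73 to 5.43 with a median of 5.16, and the 8 females from 5.82 to 7.06 with a median of 6.45. The sexes did not overlap. The difference of males minus females was -1.41 ± 0.17 (SE, interval -1.77 to -1.05, 2.66 fold), with limma adjusted p = 0.00222. It was called in each of 14 fits that left out 1 conceptus (limma adjusted p = 0.00101 to 0.0182).

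ECH1 is annotated on chromosome 18, an autosome. Of the 110 probe sets called for sex, 51 were on the X chromosome, 1 on the Y, 23 on autosomes and 33 had no chromosome. The few others fell in none of these classes. Autosomal genes were also tested alone, with adjustment over their 12827 probe sets. There 3 probe sets were called, those of ECH1 (limma adjusted p = 0.013), AHSG and LOC505600. The dimmer ECH1 probe set had the same sign at -0.27 ± 0.08 (SE) and was not called (limma adjusted p = 0.206), with males and females overlapping. Whether the called probe set measures ECH1 alone was not tested. In the wider list HSD17B10, a mitochondrial dehydrogenase of the X chromosome, was lower in males by -0.56 (limma adjusted p = 0.00298), at 10.75 ± 0.08 (SD, n = 6) against 11.28 ± 0.13 (SD, n = 8).

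**Figure D5:**
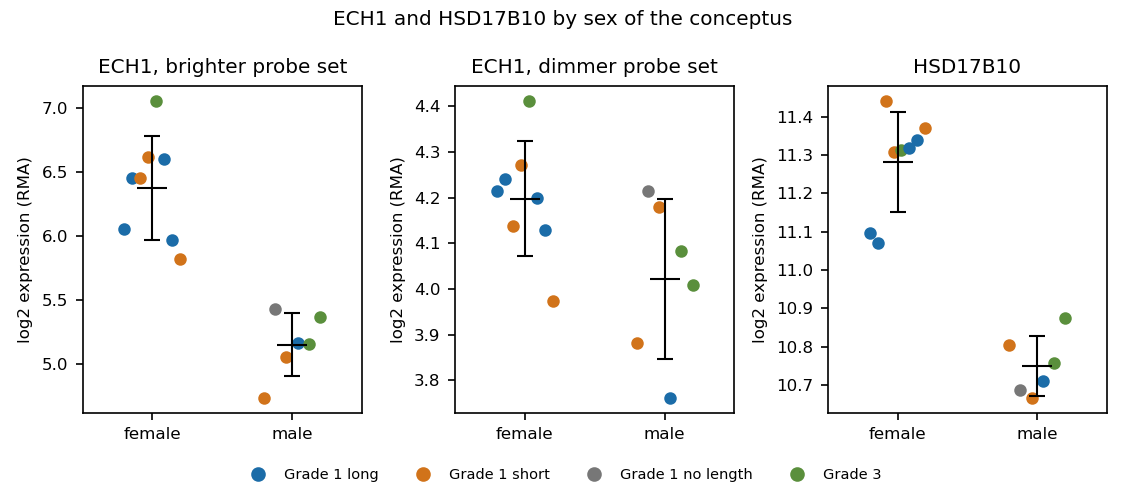
Log2 expression of both ECH1 probe sets and of HSD17B10 in female and male conceptuses, coloured by group, with means and SD. For the brighter ECH1 probe set all 6 males lie at or below 5.43 and all 8 females at or above 5.82, while the dimmer probe set overlaps.

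Other members with an unadjusted p under 0.05 for sex did not pass the adjustment. FABP5 was higher in value in males by 0.34 and 0.67 (limma adjusted p = 0.186 and 0.139), and ELOVL5 by 0.57 (limma adjusted p = 0.313). SCD5 was at -0.32, DGAT1 at -0.22, DGAT2 at -0.24, a dim PPARD probe set at -0.16 and 1 ACSL3 probe set at 0.22. The long group held 4 females of 5, and with sex as a covariate the length difference of ELOVL5 was 2.02 (limma adjusted p = 0.00432).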

How the data were processed

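RNA of 14 conceptuses was measured on Affymetrix bovine arrays, from 250 ng of total RNA each per the labels' protocols. The deposited table holds log2 values. The submitters' processing notes name RMA and Affymetrix Expression Console, and the versions are not given in those notes. RMA corrects background, equalises the distributions of the arrays and combines the probes of each set, which compresses dim differences and removes a shift common to all genes. Arrays carry no read depth, so their number limits the precision.

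The 112 control probe sets were left out. Gene names came from the platform annotation, where 13292 probe sets had 1 symbol, 86 several and 10638 none; all 32 genes matched RefSeq (ARS-UCD2.0) by Entrez number. Differences were fitted with limma 3.58.1 (lmFit, eBayes) in R 4.3.3, two-sided, on 10 arrays for length and all 14 otherwise. The fit was tested on simulated data. Replicate numbers only name conceptuses. The labels tie no conceptus to a dam or recipient, so p-values reflect only how much these conceptuses varied and treat them as independent. The design text compares 4 Grade 1 with 3 Grade 3 conceptuses without naming the 4, so all 11 were used.

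Genes, lists and tests were chosen with earlier results of these data known. All members were named; values in every conceptus are given for called members and for the member of each step with the smallest length p, and wider genes are named where called. PPARG, ACACA and PNPLA2 values were added after they were seen. Alternatives were array centring, quantile normalisation, dim filters, 1 probe set a gene, covariates, title prefix blocks, other limma settings, the other length label and each conceptus left out.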

Additional observations from a re-analysis of the deposited data

Results flagged for a closer look

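Single conceptuses stood far from the rest of their group in 12 of 88 groups of 5 examined (13.6%). The rule looked for a gap to the nearest other value that was large for the range of the group. With independent normal values about 1 in 20 groups would be flagged. The groups here share arrays and genes, so the share flagged cannot be compared with that rate. Of the 12, 5 were in Grade 1 short replicate 5. It was low for PPARG (6.25, next 8.05), SLC27A6 (9.77, next 10.99), the brightest ACSL3 probe set (12.11, next 12.46) and SCD (12.74, next 13.19), and high for a dim FABP4 probe set (3.28, next 2.96). Other short conceptuses stood apart for ACACA (replicate 3, 6.06, next 5.85), DGAT1 (replicate 2, 8.15, next 8.39) and PNPLA2 (replicate 1, 7.79, next 7.35). Among long conceptuses, replicate 3 was high for LPL (6.26, next 4.78). Long replicate 2 was low for RXRB (5.91, next 6.31) and ACACA (5.51, next 5.90), and long replicate 1 for the dimmer ECH1 probe set (3.76, next 4.13).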

How the results depend on the processing

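The count of 4 called probe sets for length moved with several choices: it was 7 with sex as a covariate (10.01% of all probe sets called, against 6.57%), 7 with limma's trend and robust settings (7.46%), 8 at an adjusted p under 0.1 (11.5%), and 2 (ELOVL5 and SREBF1) with the conceptus of disagreeing labels counted as long (2.05%). With 1 conceptus left out it ranged from 2 without long replicate 5 (2.12%) to 8 without short replicate 1 (7.07%). The median of 0.11 became 0.20 over probe sets at or above the median level, and ranged from 0.079 to 0.15 with 1 conceptus left out. Grade 3 against long had 1 call with sex as a covariate, ELOVL5 (0.204% of all probe sets called, against 0.00%). The sex count ranged from 1 to 2, the latter without long replicate 2 (0.933% of all, against 0.458%). ELOVL5 was called for length in every alternative run. Without both short replicates 1 and 5, chosen after seeing the data, ACSL5 was at 0.80 (limma adjusted p = 0.0707) and ACSL3 at 0.41 (0.0549), no longer called, and PPARG at 0.53 (0.0411), now called. With a fixed block for the prefix of the title, FABP7 was at -0.90 (0.111) and ACSL3 at 0.35 (0.163), no longer called. SREBF1 was at 0.60 (0.0474) in that fit, now called. The cause of these changes was not tested.

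Some length differences that were not called changed sign, all but the brighter ECH1 probe set (0.32) near 0. With arrays centred CPT2 was at -0.017, with quantile normalisation HSD17B10 at 0.013, and with a random prefix block CPT2 at -0.014. With sex as a covariate PPARD was at 0.016, CPT2 at -0.014 and the dimmer ECH1 probe set at -0.026. With a fixed prefix block ACACA was at -0.033 and 0.0089, CPT2 at -0.16 and ECH1 at -0.077. With the disagreeing conceptus as long, LPL was at -0.045, FABP4 at -0.025, ACACA at -0.0097, CPT2 at -0.081 and ECH1 at -0.15 and -0.069. Without both short conceptuses LPL was at -0.12, CPT2 at -0.091 and ECH1 at -0.087. With 1 conceptus left out the ranges were -0.00097 to 0.12 for FABP4, -0.013 to 0.12 and -0.068 to 0.045 for ACACA, -0.12 to 0.088 for HSD17B10, -0.031 to 0.11 for ECH1, -0.085 to 0.045 for PPARD, -0.26 to 0.27 for LPL and -0.048 to 0.046 for CPT2. No paired analysis was possible because replicate numbers only name conceptuses; fixed and random blocks for title prefixes were run in its place.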
